A study of Mus musculus with 2 samples.

Results

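Regulatory DNA far from promoters can be crowded with bound proteins, and the distal sites with the most protected stretches are described here. DNase I cuts DNA where nucleosomes are absent, so stretches rich in cuts (peaks) mark accessible DNA. Inside a peak, a short run of bases that is cut less than its surroundings (a footprint) is a stretch shielded from the enzyme, often by a bound transcription factor. The spleen of a young mouse still makes red cells, and it also houses B cells, T cells, macrophages and granulocytes. Distal elements of red cell genes are known to combine sites for GATA1, for the TAL1 complex on E-boxes and for KLF1 on CACC boxes, while CTCF marks insulators and loop anchors.

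The sites were taken from DNase-seq of whole spleen from male mice of strain B6CASTF1/J aged 10 days, with no treatment named, as 2 libraries that the labels give as biological replicates 1 and 2 of 1 group, from separately numbered males. B6CASTF1/J is the first-generation cross of C57BL/6J and CAST/EiJ, so each library holds 2 parental genomes, and the lists give no parental origin. The samples are whole tissue, so a site open in few cells and a site weakly open in many cannot be told apart. The deposited lists held 130476 peaks and 404781 footprints in replicate 1, and 95847 peaks and 276537 footprints in replicate 2. The number of reads behind each library is unknown here. Peaks and footprints were listed for each library on its own.

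Peaks of both libraries that overlapped by at least 1 bp were merged, which gave 146575 sites. Of these, 73150 had a peak of both libraries, and 48823 of those lay outside the 500 bp either side of every annotated TSS (GENCODE M21, mm10). The sites described here were chosen by their footprint counts: 2707 of the 48823 shared distal sites (5.54%) had at least 5 footprints in each library. The other 46116 shared distal sites serve as the background. Among the 24327 shared sites at promoters, 6360 (26.1%) reached the same count. A count of 5 or more in replicate 1 alone was met by 6363 shared distal sites, and in replicate 2 alone by 3950.

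Because peaks and footprints chose the sites, widths, signals and footprint counts are given as descriptions and were not tested. Of the 2707 sites, 1758 (64.9%) had a smaller count of exactly 5, and 524 had 6. Just outside the threshold lay 6208 sites with a smaller count of 4. Sites just inside had a median width of 220 bp and median signals of 2.17 in replicate 1 and 1.31 in replicate 2. Sites just outside had a median width of 200 bp and median signals of 2.04 in replicate 1 and 1.202 in replicate 2. The signal is the authors' density of DNase cutting in a peak, here that of the strongest peak of a site. It compares sites within a library, and libraries only as ratios. On both sides of the threshold, the medians of width and signal were thus close. The upper quartile of width was 340 bp just inside and 220 bp just outside.

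**Figure D1:**
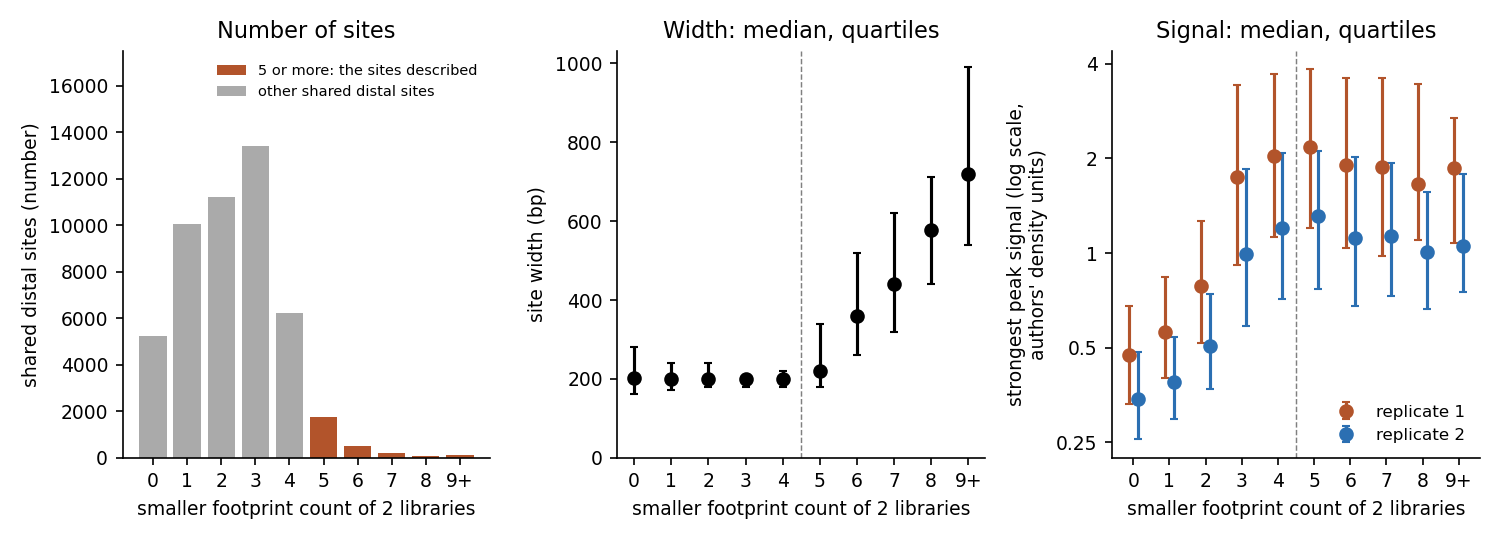
Shared distal sites by the smaller of their footprint counts in the 2 libraries: number of sites (left), site width in bp (middle) and strongest peak signal on a log axis in the authors' units (right), as medians with quartiles. The threshold of 5 (dashed line) is passed by 2707 sites, the median width climbs to 720 bp at 9 or more footprints, and the median signal levels off from a count of 3 or 4 onwards.

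Several of these sites are known elements of blood cell genes, and their DNA shows where the protection lies. The sequences below are the plus strand of the mm10 reference, which is the C57BL/6J genome and not the CAST/EiJ one. Capitals mark bases inside footprints of both libraries. The first 2 were added after their values were seen, because RefSeq annotates both as enhancers of red cells. The site in an intron of Nprl3 is the annotated DNase site HS-31, also called MCS-R1, an enhancer of the alpha-globin genes next door. The site in an intron of Alas2 is the annotated enhancer Alas2R1 of the enzyme that starts haem synthesis in red cells. For sites wider than the stretch shown, the 300 bp with most such bases are printed.
Nprl3 intron, chr11:32245621-32245920: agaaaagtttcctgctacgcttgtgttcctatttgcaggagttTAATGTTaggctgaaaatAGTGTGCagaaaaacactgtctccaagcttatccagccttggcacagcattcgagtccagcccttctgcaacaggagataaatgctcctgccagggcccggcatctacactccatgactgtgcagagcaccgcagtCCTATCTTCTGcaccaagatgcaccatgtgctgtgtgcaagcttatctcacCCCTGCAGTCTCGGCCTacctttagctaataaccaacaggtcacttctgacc
Alas2 intron, chrX:150549661-150549960: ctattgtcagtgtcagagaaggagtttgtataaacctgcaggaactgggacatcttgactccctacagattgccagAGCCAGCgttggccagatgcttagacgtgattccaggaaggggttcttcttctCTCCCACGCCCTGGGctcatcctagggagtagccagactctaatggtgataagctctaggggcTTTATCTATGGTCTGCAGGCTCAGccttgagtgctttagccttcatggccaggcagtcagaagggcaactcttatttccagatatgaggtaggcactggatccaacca
Upstream of Hmox1, chr8:75083921-75084100: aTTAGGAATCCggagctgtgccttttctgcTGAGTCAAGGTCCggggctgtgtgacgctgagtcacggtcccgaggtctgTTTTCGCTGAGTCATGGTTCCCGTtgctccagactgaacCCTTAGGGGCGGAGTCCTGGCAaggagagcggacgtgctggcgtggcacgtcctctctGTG
Downstream of Cebpe, chr14:54705861-54706160: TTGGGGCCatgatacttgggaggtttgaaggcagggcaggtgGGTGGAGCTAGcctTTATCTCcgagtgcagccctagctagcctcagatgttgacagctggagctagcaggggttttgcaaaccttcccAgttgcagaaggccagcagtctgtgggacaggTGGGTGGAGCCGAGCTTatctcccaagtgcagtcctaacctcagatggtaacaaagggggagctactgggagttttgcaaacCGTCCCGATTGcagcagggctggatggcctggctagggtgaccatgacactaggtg
Upstream of Gata2, chr6:88189541-88189840: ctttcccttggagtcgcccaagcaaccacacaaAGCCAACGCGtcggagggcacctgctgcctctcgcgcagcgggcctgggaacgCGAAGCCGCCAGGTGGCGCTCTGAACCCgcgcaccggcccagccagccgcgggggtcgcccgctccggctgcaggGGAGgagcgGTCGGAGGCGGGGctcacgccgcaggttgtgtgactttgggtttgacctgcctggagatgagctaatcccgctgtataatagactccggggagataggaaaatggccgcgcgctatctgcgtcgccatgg

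The Alas2 site, 380 bp wide at chrX:150549661-150550040 and 2392 bp downstream of the TSS, had 5 footprints in replicate 1 and 6 in replicate 2. Its signal was 3.25 in replicate 1 and 1.252 in replicate 2. RefSeq places 2 GATA1 binding sites in it. The second, at chrX:150549854-150549859, spells AGATAA on the minus strand, and all 6 of its bases lay in footprints of both libraries. The first, at chrX:150549836-150549841, spells TGATAA, and its 6 bases lay in a footprint of replicate 1 and in none of replicate 2. A CACC box in the same window was covered in both libraries.

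The Nprl3 site, 360 bp at chr11:32245621-32245980, had 6 footprints in each library, of which 4 of replicate 1 overlapped one of replicate 2. Its signal was 6.35 in replicate 1 and 2.79 in replicate 2. The window holds 2 AGATAA matches, each at most 12 bases from a CTG, and neither lay wholly inside footprints of both libraries. The match on the minus strand lay wholly inside a footprint of replicate 1 and outside all those of replicate 2. The match on the plus strand lay outside the footprints of either library. The 42 shared footprint bases of this site fell outside these 2 matches. One run of capitals, CCTATCTTCTG, holds AGATAG on the minus strand, a form with the GATA letters that was not searched.

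The Hmox1 site, 180 bp at chr8:75083921-75084100, lay 9610 bp upstream of the gene for haem oxygenase, which breaks down haem in macrophages that clear old red cells. It had 6 footprints in replicate 1 and 5 in replicate 2, with signals of 11.9 and 6.16. Upstream elements of this gene are known to bind BACH1 and NRF2 with small MAF proteins at sequences of the form GCTGAGTCA, and the 180 bp hold 3 of them. The match at bases 86 to 94 of the site was wholly covered in both libraries. The match at bases 29 to 37 was wholly covered in replicate 1 and by 7 of its 9 bases in replicate 2. The match at bases 57 to 65 had 8 of 9 bases in footprints of replicate 1 and 0 in replicate 2. Protection of the 3 copies by both libraries was thus unequal.

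The Cebpe site, 300 bp at chr14:54705861-54706160, lay 6163 bp downstream of the TSS of the factor that drives late granulocyte maturation. It had 7 footprints in replicate 1 and 6 in replicate 2, with signals of 7.78 and 2.92. Its window holds 2 GATA, 3 E-box and 3 C/EBP matches, and of these the GATA match at bases 57 to 62 lay wholly in footprints of both libraries. The Gata2 site, 360 bp at chr6:88189541-88189900, lay 4170 bp upstream of the gene for a factor of blood progenitors and is annotated as the test fragment Gata2R8. It had 6 footprints in replicate 1 and 7 in replicate 2, with signals of 2.40 and 1.15. The longest run of capitals in its window holds a CTCF match at bases 92 to 103.

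For contrast, the sites with most footprints near genes of B cells, T cells and red cells, and the site with most footprints of all, are shown in the same way.
Intron of Tcf3, chr10:80431725-80432024: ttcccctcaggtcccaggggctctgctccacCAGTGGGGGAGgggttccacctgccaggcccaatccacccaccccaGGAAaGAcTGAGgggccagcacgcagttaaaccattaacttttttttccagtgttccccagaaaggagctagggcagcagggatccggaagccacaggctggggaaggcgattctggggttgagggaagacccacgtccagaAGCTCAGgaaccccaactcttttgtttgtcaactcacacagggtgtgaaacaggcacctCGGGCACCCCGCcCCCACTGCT
Upstream of Ccr7, chr11:99168101-99168360: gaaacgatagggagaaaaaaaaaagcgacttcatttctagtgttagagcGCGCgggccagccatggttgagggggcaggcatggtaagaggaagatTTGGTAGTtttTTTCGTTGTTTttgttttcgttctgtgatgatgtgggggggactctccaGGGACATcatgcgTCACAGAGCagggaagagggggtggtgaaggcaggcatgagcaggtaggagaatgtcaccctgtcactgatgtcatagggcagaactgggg
Upstream of Slc4a1, chr11:102368132-102368431: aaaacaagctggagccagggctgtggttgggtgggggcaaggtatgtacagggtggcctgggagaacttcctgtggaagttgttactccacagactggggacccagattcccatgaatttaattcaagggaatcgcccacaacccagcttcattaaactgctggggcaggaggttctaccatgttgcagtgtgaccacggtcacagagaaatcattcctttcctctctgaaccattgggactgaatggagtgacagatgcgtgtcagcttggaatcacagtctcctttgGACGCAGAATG
Downstream of Ucp2, chr7:100500575-100500874: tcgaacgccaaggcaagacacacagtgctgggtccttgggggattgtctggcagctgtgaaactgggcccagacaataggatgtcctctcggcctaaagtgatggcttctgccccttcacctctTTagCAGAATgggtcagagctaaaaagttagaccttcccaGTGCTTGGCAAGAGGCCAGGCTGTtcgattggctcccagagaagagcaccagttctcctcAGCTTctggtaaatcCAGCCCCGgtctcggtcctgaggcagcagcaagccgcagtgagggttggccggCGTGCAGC

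Tcf3 encodes the E-box factor E2A of early B cells, and its site at chr10:80431701-80432480, in an intron of the gene and 1009 bp upstream of the nearest of its TSSs, had 9 footprints in each library, 5 of those of replicate 1 overlapping one of replicate 2. The signal there was 1.43 in replicate 1 and 0.749 in replicate 2. Ccr7 encodes the chemokine receptor that brings T cells to lymphoid tissue, and its site 13154 bp upstream had 6 footprints in each library, with signals of 3.62 in replicate 1 and 1.05 in replicate 2. A RefSeq TSS lay within 500 bp of the Ccr7 site, which GENCODE M21 does not list. In the Slc4a1 window, 11 of the 300 bases were inside footprints of both libraries, the fewest of the 9 windows printed, against 72 of 180 in the Hmox1 window.

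**Figure D2:**
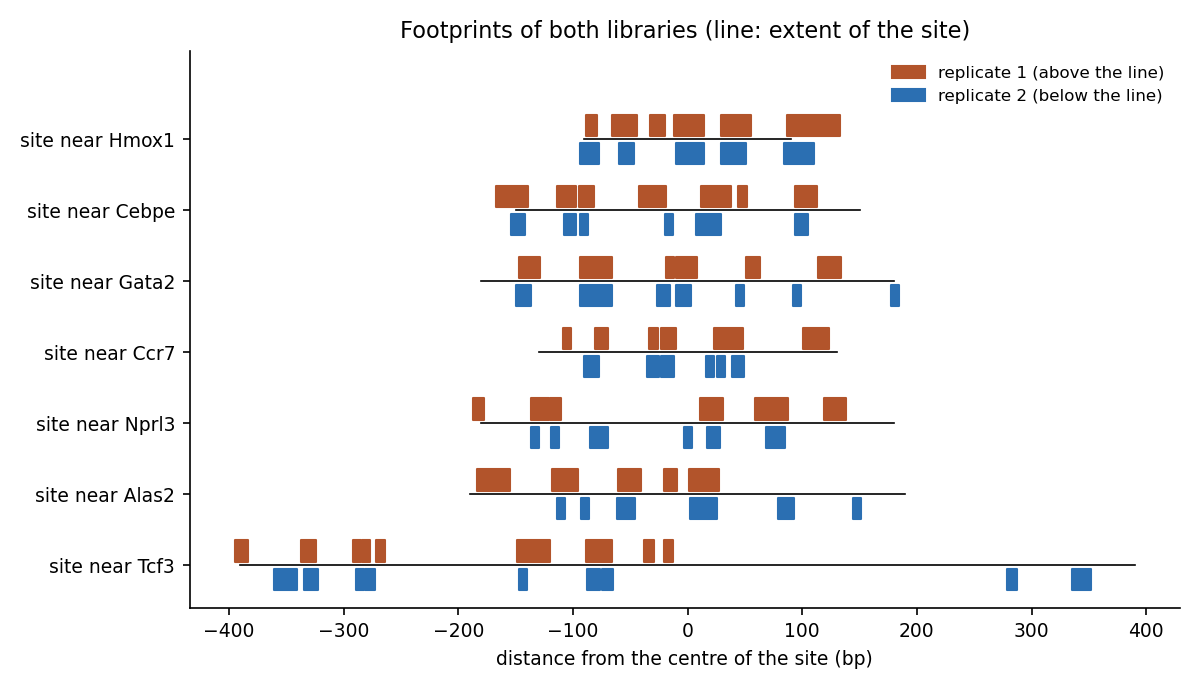
Footprints (boxes) of replicate 1, above each line, and of replicate 2, below it, at 7 of the sites whose sequences are printed, by distance in bp from the centre of the site; the line is the extent of the merged site. At the 180 bp Hmox1 site 5 of the 6 boxes of replicate 1 meet a box of replicate 2, while in the 780 bp Tcf3 site 5 of 9 do.

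The sites were wider and more strongly cut than the other shared distal sites, and the widest were not the strongest. The median width was 280 bp (quartiles 200 and 440 bp, range 147 to 4140 bp), against 200 bp (180 and 237 bp) at the other shared distal sites. In replicate 1 the strongest signal had a median of 2.05 (range 0.221 to 53.2) in these sites and 0.889 in the others. In replicate 2 the medians were 1.22 (range 0.193 to 19.1) in these sites and 0.574 in the others. The lowest false discovery rate of the cut rate in a site, from the deposited lists, had a median log10 of -19.4 in replicate 1 and -14.8 in replicate 2, against -7.29 and -5.59 at the other shared distal sites. The median site stood at the 76.1 percentile of signal among shared distal sites in replicate 1 and at 77.4 in replicate 2, and 16.9% of the sites in replicate 1 and 14.998% in replicate 2 lay below the median of all shared distal sites. A footprint is seen against the cuts around it, and the part of signal in the footprint counts was not tested. The 5243 shared distal sites with no footprint in one of the libraries had median signals of 0.473 in replicate 1 and 0.343 in replicate 2, at a median width of 203 bp.

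Sites of at least 500 bp numbered 546, and they made up 34.7% of all shared distal sites of that width. The share was 13.9% from 300 to under 500 bp, 4.46% from 200 to under 300 bp and 2.26% below 200 bp. Signal mostly ran the other way: the 500 sites below 200 bp had median signals of 2.75 in replicate 1 and 1.67 in replicate 2, and the sites of at least 500 bp had 1.05 and 0.716. From 200 to under 300 bp the medians were 2.98 and 1.71, above those of the narrowest class. Density of footprints fell with width too, with 2.78 per 100 bp of replicate 1 in the narrowest class and 1.15 in the widest. A minimum of 5 footprints by itself forces a high density on narrow sites, so this fall was in part fixed by the rule. Across the 2707 sites, Spearman's rho between width and signal was -0.45 in replicate 1 and -0.48 in replicate 2. Narrow, strong sites and wide, weaker ones were therefore both present. The other shared distal sites had median signals of 0.926 in replicate 1 and 0.557 in replicate 2 below 200 bp. At 500 bp or more they had 0.716 and 0.549. The part of the footprint minimum in the relation of width and signal was not tested. Of the sites, 2208 (81.6%) consisted of 1 peak in each library, against 97.9% of the other shared distal sites. The shorter of the deposited peak lists of both libraries held a peak at 95.05% of the sites, against 62.4%.

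The libraries ranked the sites alike by signal and less alike by footprint count. Spearman's rho between replicate 1 and replicate 2 was 0.88 for signal and 0.40 for the number of footprints across the 2707 sites, all of which share the same 2 libraries. The signal was higher in replicate 1 at 2470 sites (91.2%), with a median log2 ratio of replicate 1 over replicate 2 of 0.82 (SD 0.55 over sites), against 0.70 (SD 0.57) at the other shared distal sites. The rule asks for 5 footprints in each library, which by itself draws the numbers of both libraries together. Replicate 1 had more footprints at 945 sites, replicate 2 at 730, and 1032 sites had equal numbers. In total the sites held 17278 footprints of replicate 1 and 16620 of replicate 2.

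Footprints of the sites were short and had 2 humps in their spacing. Their median width was 12 bp in replicate 1 and 10 bp in replicate 2, and 20.6% and 28.7% had the minimum width of 7 bp. At the 19630 shared distal sites with a smaller count of 3 or 4, footprints were wider, with medians of 19 bp in replicate 1 and 12 bp in replicate 2. Footprints covered a median of 32.0% of the bases of a site in replicate 1 and 23.8% in replicate 2, against 43.1% and 29.0% at sites with 3 or 4. The covered share of a site was thus lower in the sites, which were also wider.

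The centres of neighbouring footprints were a median of 44 bp apart in replicate 1 (quartiles 23 and 60.5 bp, 14571 pairs) and 40.5 bp in replicate 2 (21.5 and 60 bp, 13913 pairs). Sites with a smaller count of 3 or 4 had 53.5 bp in replicate 1 and 48.5 bp in replicate 2. In replicate 1, 19.2% of neighbours were under 20 bp apart, 26.3% at 20 to 40 bp, 28.5% at 40 to 60 bp and 19.9% at 60 to 100 bp. In replicate 2 the same classes held 21.5%, 27.7%, 25.6% and 17.8%. Because at least 5 footprints must fall in each site, the rule by itself keeps spacing short in narrow sites. Spacing widened with the site, with medians in replicate 1 of 27.5 bp below 200 bp, 36.5 bp from 200 to under 300 bp, 47 bp from 300 to under 500 bp and 54 bp at 500 bp or more, and in replicate 2 of 26.5, 33, 44 and 55 bp.

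**Figure D3:**
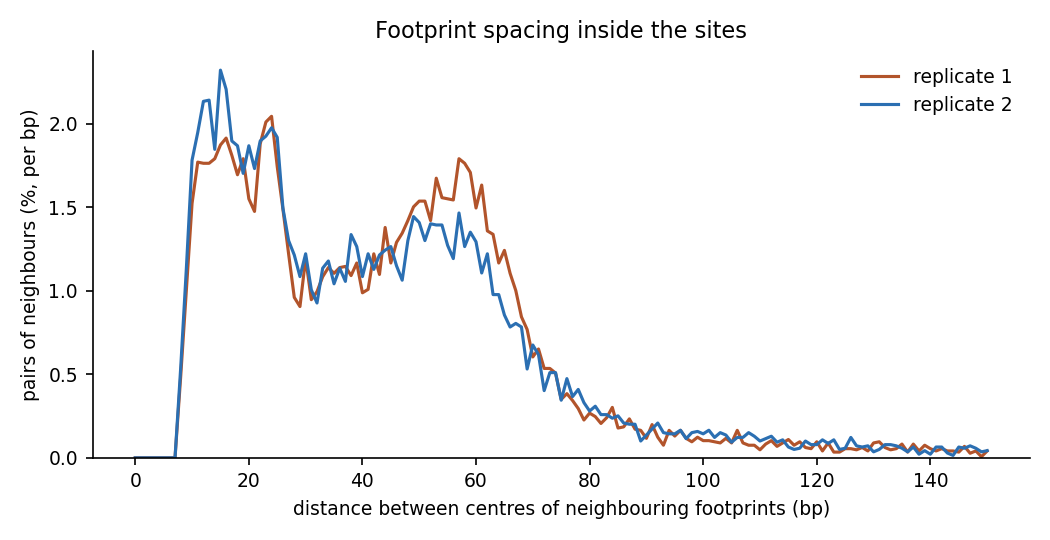
Distance in bp between the centres of neighbouring footprints inside the 2707 sites, as the percentage of neighbour pairs at each distance, for replicate 1 (14571 pairs) and replicate 2 (13913 pairs). Both lines show 1 hump below about 25 bp and another between 50 and 60 bp, with fewer pairs at 30 bp.

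Most footprints of a site were found in the other library, more often in narrow sites than in wide ones. Of the footprints of replicate 1, 61.4% overlapped one of replicate 2 by at least 1 bp, and of those of replicate 2, 69.6% overlapped one of replicate 1. A footprint of the same width placed at every position of the same site in turn would overlap 1 of the other library at 47.0% of placements for replicate 1 and 50.2% for replicate 2. In sites below 200 bp the shares were 82.5% for replicate 1 and 93.8% for replicate 2, beside 76.5% and 79.2% of placements. In sites of at least 500 bp they were 39.1% and 44.2%, beside 22.1% and 24.4% of placements. The overlap was thus above that of all placements in each width class of both libraries. Placements lay wholly inside the site, while counted footprints could reach past its edge and meet there. The part of such edge footprints in the margin was not tested. Footprints with both ends identical in the 2 libraries numbered 526.

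At 840 of the sites (31.0%), 5 or more footprints of each library overlapped one of the other. At 137 sites (5.06%), 1 or 0 did, so the count of 5 in both libraries was reached there by footprints at different positions. Sites with a smaller count of 3 or 4 had higher shares, 70.0% for replicate 1 and 81.6% for replicate 2, beside 59.1% and 63.4% of placements. With all widths pooled, the margin over placements was smaller there than in the sites, in both libraries. The sites below 200 bp had a smaller margin than those with 3 or 4, with 82.5% beside 76.5% for replicate 1 and 93.8% beside 79.2% for replicate 2. Sites with a smaller count of 3 and those with 4 each had a median width of 200 bp, against 280 bp in the sites. Their shares were not split by width, so the margins were not compared at like width.

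**Figure D4:**
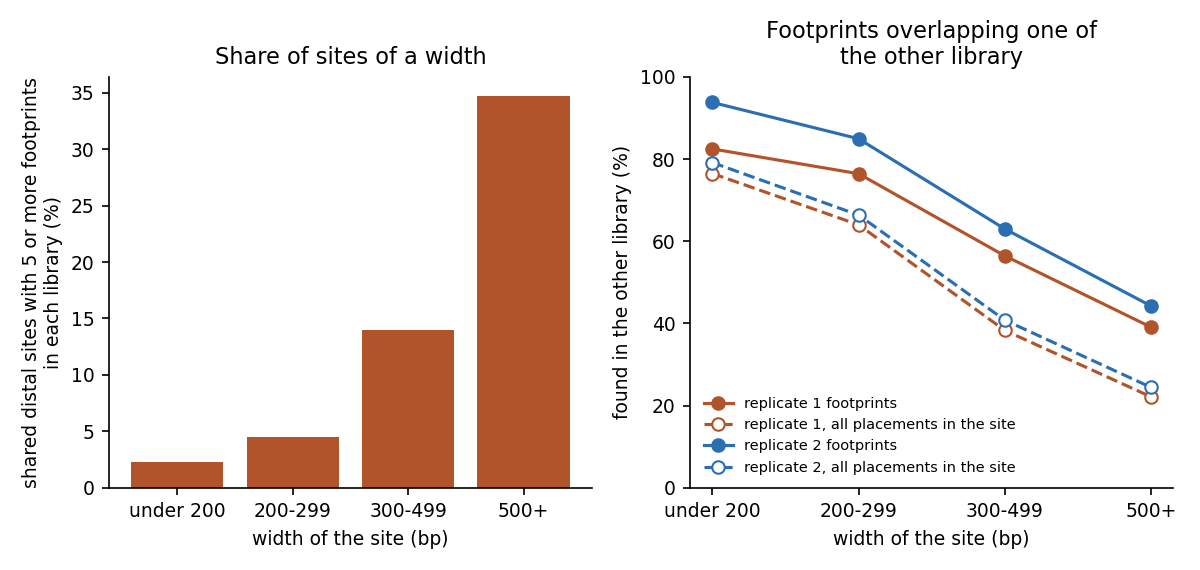
Left, percentage of all shared distal sites of a width class (bp) that have 5 or more footprints in each library; right, percentage of the footprints of each library in these sites that overlap one of the other library (filled) and of all placements of them in the same site (open). The share of sites climbs from 2.26% to 34.7% with width, while the share of replicate 1 footprints found again falls from 82.5% to 39.1%.

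The sites with most footprints were broad. The largest count was at chr7:100500481-100504620, a stretch of 4140 bp over 8 peaks of replicate 1 and 7 of replicate 2, with 46 footprints in replicate 1 and 43 in replicate 2. It lies in Dnajb13 and 4205 bp downstream of the nearest TSS, that of Ucp2, which encodes a mitochondrial carrier, and 20 of its 46 footprints overlapped one of replicate 2. Ttc39a followed with 19 footprints in replicate 1 and 18 in replicate 2 in an intron (980 bp), and 15 of the 19 overlapped one of replicate 2. The site 2601 bp upstream of Slc4a1 had 17 in each library over 2044 bp, and 3 of replicate 1 were met by replicate 2. A site 6978 bp downstream of the TSS of Cdkn1b, which encodes the cell cycle inhibitor p27, had 15 in replicate 1 and 17 in replicate 2, and 5 of the 15 were met. The share met by replicate 2 thus varied widely between these sites, with 3 of 17 at Slc4a1 and 15 of 19 at Ttc39a. The site 74522 bp downstream of the Bcor TSS had 22 in replicate 1 and 15 in replicate 2, and 5 of the 22 were met. The site near March5 had 14 in replicate 1 and 13 in replicate 2, and 11 of the 14 were met. A site in an exon of Cln8 had 15 in replicate 1 and 13 in replicate 2, and 4 of the 15 were met.

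The remaining 3 of the 10 with most footprints lay near the X chromosome's pseudoautosomal boundary, on the Y chromosome and in repeats. The site in Mid1, a gene that spans this boundary in C57BL/6 mice, had 13 footprints in replicate 1 and 14 in replicate 2 and has 1 near-identical copy elsewhere in the assembly. The site near Gm21860 on the Y chromosome had 13 in replicate 1 and 14 in replicate 2. The site at chr4:3083181-3084480 had 16 in replicate 1 and 26 in replicate 2, and 58.5% of its central 200 bp is annotated as repeat. In all, 26 of the 2707 sites had a near-identical copy elsewhere, 2 of them with at least 10 copies.

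The 10 strongest sites by the product of both signals were mostly CpG-rich. They were 200 to 540 bp wide, the widest being the site in Mid1 that is also among the 10 with most footprints, with signals of 33.1 to 53.2 in replicate 1 and 10.3 to 17.2 in replicate 2, and 9 of the 10 were CpG-rich, meaning a CpG observed over expected above 0.6 and a GC content above 55% in the central 200 bp. The site in Mid1 was the strongest in replicate 1 (53.2, and 12.9 in replicate 2). Of these 10, the strongest in replicate 2 lay at chr1:195241541-195241800 (17.2, and 34.9 in replicate 1), where all 7 footprints of replicate 1 overlapped one of replicate 2. The others lay near Zfpm1, Fbxw7, Cbx7, C87436, Ccne1, Sp4, Stmn1 and Yy1. The sites near Zfpm1, Fbxw7 and Yy1 were within 500 bp of a TSS that RefSeq lists and GENCODE M21 does not, so distal holds for them by the GENCODE list only.

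Fewer of the sites than of the other shared distal sites lay in introns, and more lay within 5 kb of a coding TSS, but not in every width class. Introns held 1269 of them (46.9%, exact 95% interval 45.0 to 48.8), against 51.6% of the other shared distal sites. Intergenic DNA held 43.5%, against 40.3%, and exons 9.64%, against 8.09%. The nearest protein-coding TSS was a median of 9550 bp away, against 12172 bp. Within 5 kb of such a TSS lay 35.9% (34.1 to 37.8), against 30.5%, and 13.0% lay more than 50 kb away, against 18.4%. By width, the share within 5 kb was higher than in the other sites below 200 bp (32% against 26.5%) and from 200 to under 300 bp (37.5% against 31.2%). It was lower from 300 to under 500 bp (35.1% against 41.3%) and at 500 bp or more (38.3% against 49.9%). The intron share was below that of the other sites in the 3 narrower classes and 50.9% against 50.6% at 500 bp or more. RefSeq TSSs lay within 500 bp of 237 sites (8.76%), against 4.01%. CpG-rich sites numbered 409 (15.1%, 13.8 to 16.5), against 4.23%. Read from the other side, 17.3% of the 2359 CpG-rich shared distal sites reached 5 footprints in both libraries, beside the 5.54% of all. The RefSeq TSS and CpG-rich shares were both above those of the other sites in the 3 narrower width classes. At 500 bp or more they were 10.6% against 10.5% and 10.8% against 11.7%.

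RefSeq regulatory features overlapped 43 sites (1.59%, 1.15 to 2.13), against 256 (0.555%, 0.489 to 0.627) of the other shared distal sites. These shares were not split by width or signal, and the sites were wider and stronger than the others. Enhancers were 42 of the 43 sites by annotation, and for 32 the note names the VISTA enhancer collection, in which sequences were tested in transgenic embryos. Besides the alpha-globin R1, Alas2R1 and Gata2R8 elements already described, the set held Alas2R3, 2 sites on the Zfpm1R2 fragment, Btg2R9, the site HS-1 of Pax5, the B cell identity factor, and VISTA enhancers near Ccnd3, Rbm38 and Gse1. Locus control regions were annotated at 8 of the other shared distal sites and at 0 of these.

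The sites were carried by many genes, mostly with 1 site each. By nearest coding TSS they fell to 2097 genes, 1689 of them with 1 site, 285 with 2 and 123 with 3 or more. Bcor, which encodes a corepressor that works with BCL6, led with 11 of its 46 shared distal sites. All 11 were of moderate signal, 0.746 to 3.12 in replicate 1 and 0.448 to 0.909 in replicate 2, 10 of them were CpG-rich, and 9 held a CACC box in the central 200 bp. They spread over 292 kb of the X chromosome.

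Slc4a1 encodes band 3, which swaps chloride for bicarbonate across the red cell membrane, and had 9 of its 23 shared distal sites in the set, all within 28.6 kb. The strongest of them, at chr11:102375301-102375560 and 9228 bp upstream, had signals of 7.61 in replicate 1 and 4.12 in replicate 2 and 5 footprints in each library, all 5 overlapping, and a RefSeq TSS lay within 500 bp of it. The weakest in replicate 1 was the 2044 bp site 2601 bp upstream, with 0.446 in replicate 1 and 0.452 in replicate 2. The third widest site of the whole set, 1883 bp at chr11:102350121-102352003 and in an intron of Slc4a1, had 8 footprints in replicate 1 and 22 in replicate 2, of which 1 of replicate 1 overlapped.

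Rbm38, an RNA-binding protein of red cell maturation, had 7 of 29, and Ccnd3, a cyclin of red cell precursors, had 6 of 15. The strongest Ccnd3 site, at chr17:47511201-47511400, had signals of 20.1 in replicate 1 and 13.4 in replicate 2. E2f2, a cell cycle factor of late red cell precursors, had 5 of 16, with its strongest site at 12.9 in replicate 1 and 5.49 in replicate 2. Smad7, an inhibitor of TGF-beta signalling, had 6 of 33, and Gse1 6 of 58. Ormdl3, a regulator of sphingolipid synthesis, had 5 of 10, Ppp1r9b, which encodes spinophilin, 5 of 12, and Rap1gap2, a GTPase-activating protein, 5 of 16. Arhgap23 had 5 of 18, Cnnm2, a magnesium transport protein, 5 of 21, Galnt10, an enzyme of O-linked glycosylation, 5 of 23, and Sde2 4 of 5. Gm21860 on the Y chromosome had 5 of 20, 3 of them with a near-identical copy. These counts are by nearest TSS and link no site to the gene it acts on.

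By gene list, red cell genes carried the largest share. Of the 237 shared distal sites nearest to the 31 annotated red cell genes, 39 (16.5%, 11.97 to 21.8) were in the set, beside 5.54% of all shared distal sites. Without Slc4a1 the share was 30 of 214 (14.0%). The 39 sites lay nearest to 20 of the 31 genes, and the rest of the list had none. Zfpm1, which encodes the GATA1 partner FOG1, had 4 of 19, and Ank1, which encodes the ankyrin that ties band 3 to the membrane skeleton, had 3 of 16. The strongest Zfpm1 site had signals of 39.0 in replicate 1 and 15.3 in replicate 2, with 7 footprints in each. Klf1, the factor that binds CACC boxes at red cell genes, had a site 1253 bp downstream of its TSS with signals of 13.5 in replicate 1 and 6.80 in replicate 2 and footprints of 6 and 5. Tal1 had one 3665 bp upstream with signals of 1.34 and 0.829 and footprints of 5 and 7. The Klf1, Tal1 and Alas2 sites were picked after their values were seen.

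Lists of other cell types had shares nearer to that of all shared distal sites, with wide intervals. B cell genes had 14 of 206 (6.80%, 3.77 to 11.1), led by Bach2 with 3 of 35, Pou2f2 with 3 of 13 and Ebf1 with 2 of 27. T cell genes had 8 of 87 (9.20%, 4.05 to 17.3), 4 of them at Ets1, Runx3 having 2 and Ccr7 1. NK cell genes had 2 of 24, both at Klrb1c, where the site 27585 bp downstream had 8 footprints in replicate 1 and 7 in replicate 2, 7 of them overlapping, and signals of 4.80 and 5.14. Macrophage genes had 2 of 51, at Hmox1 and at Csf1r, where the site is the intronic enhancer FIRE. Neutrophil genes had 2 of 35, at Cebpe and Csf3r. Dendritic cell genes had 2 of 62, both at Id2, where the site with most footprints had signals of 2.83 in replicate 1 and 0.749 in replicate 2 and footprints of 9 and 5. Megakaryocyte genes had 2 of 31, both at Fli1, with signals at the leading site of 2.13 and 0.963 and footprints of 8 and 6. Progenitor genes had 1 of 78 (1.28%, 0.0325 to 6.94), the Gata2 site, and 11 of the 12 genes had a shared peak at a promoter. Genes of stroma and endothelium had 2 of 60, at Kdr and Egfl7, and the Egfl7 site had signals of 2.30 and 1.08 with 5 footprints in each library.

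The control lists had 1 of 12 for liver, at Ttr, 2 of 43 for neuron, both at Gad1, and 0 of 8 for muscle, which with 8 sites allows a share of up to 36.9%. As a check of the tissue label, a promoter peak shared by both libraries was present at 30 of 31 red cell genes, 23 of 27 B cell genes, 19 of 24 T cell genes, 9 of 12 dendritic cell genes, 11 of 12 progenitor genes, 10 of 20 macrophage genes, 9 of 17 neutrophil genes and 9 of 16 genes of stroma and endothelium. It was present at 4 of 12 NK cell genes and 4 of 12 megakaryocyte genes, and, among the controls, at 0 of 10 liver genes, 4 of 10 neuron genes and 2 of 10 muscle genes.

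The DNA of the sites held more GATA, CACC and GC-box sequences than that of the other shared distal sites. Matches were counted on both strands in the 200 bp around the centre of a site, and shares carry exact 95% intervals that cover counting error only. The GATA consensus AGATAA was present in 14.0% of the sites (12.7 to 15.3), in 10.3% of the other shared distal sites (10.1 to 10.6) and in 4.05% of shared promoter sites. A second form, TGATAA, had 10.7% (9.54 to 11.9), 7.01% (6.78 to 7.25) and 2.85%. The longer AGATAAG, whose matches are also matches of AGATAA, had 6.32%, 3.74% and 1.47%. The composite of CTG and AGATAA 4 to 12 bases further on, known from sites of the GATA1 and TAL1 complex in red cells, had 5.65% (4.81 to 6.59), 3.06% (2.91 to 3.22) and 1.13%, and its matches are again matches of AGATAA. The CACC box CCNCNCCC, bound by KLF1 and its relatives, had 37.0% (35.2 to 38.8), 26.7% (26.3 to 27.1) and 54.8%. The GC box GGGCGG of SP factors had 20.2% (18.7 to 21.8), 10.6% (10.3 to 10.9) and 48.5%.

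Base composition moved with these shares: the central 200 bp had a median GC content of 53.5% in the sites and 51% in the others. Among the 2298 sites that were not CpG-rich, GATA was at 15.97% (14.5 to 17.5) and the composite at 6.44% (5.47 to 7.52), against 10.7% (10.4 to 11.0) and 3.16% (2.9996 to 3.33) of such other shared distal sites. CACC was at 32.6% and the GC box at 13.0%, against 25.6% and 9.02%. In the top tercile of all shared distal sites by signal, which held 1805 of the sites, GATA was at 14.1% (12.5 to 15.8) and the composite at 6.59% (5.49 to 7.84), against 9.34% (8.87 to 9.83) and 2.70% (2.44 to 2.98). In the middle tercile GATA was at 14.1% against 11.1%, and the composite at 4.05% (2.77 to 5.70) against 3.48% (3.20 to 3.78). In the bottom tercile, with 137 of the sites, GATA was at 11.7% (6.82 to 18.3) against 10.5%. The composite was lower there, at 2.19% against 2.98%. By width, GATA was most frequent from 300 to under 500 bp, with 21.1% against 14.9%. Below 200 bp it was at 6.2% against 8.76%, so the order turned in the narrowest class. The composite was higher in the sites from 200 to under 300 bp (5.67% against 3.65%) and from 300 to under 500 bp (10.04% against 5.33%). It was lower below 200 bp (1.6% against 2.02%) and at 500 bp or more (2.93% against 3.69%), where TGATAA was at 7.88% against 8.55%.

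CTCF behaved otherwise. Its consensus, CC, 3 bases of any kind and AGGNGGC, was present in 10.8% of the sites (9.68 to 12.1), in 12.8% of the others (12.5 to 13.1) and in 6.70% of shared promoter sites. Below 200 bp the order turned, with 30.4% of the sites against 18.8%. The sites also stood higher from 200 to under 300 bp (13.1% against 9.48%) and from 300 to under 500 bp (2.89% against 1.55%). At 500 bp or more the shares were close, 0.916% (5 sites) against 0.875% (9 sites). Intervals overlapped in that class and from 300 to under 500 bp. Within the top tercile by signal the CTCF share was 14.3% (12.7 to 15.99) against 23.3% (22.6 to 24.0). The 293 sites with a CTCF match had a median width of 180 bp, and 79.4% of their replicate 1 footprints and 90.4% of their replicate 2 footprints were found in the other library. The 153 sites with the composite had a median width of 320 bp, 62.7% of them lay in introns, and the shares were 60.3% and 66.5%. The CpG-rich sites had median signals of 4.79 in replicate 1 and 2.18 in replicate 2, at 260 bp. These kinds of site overlap with each other.

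Of the remaining consensus sequences, NF-kB, CRE, NRF1 and NFY had higher shares in the sites than in the other shared distal sites, and most others were close to the background or below it. The E-box CAGCTG had 18.5% in the sites, 16.7% in the other shared distal sites and 12.9% at promoters, and CAGGTG had 18.7%, 19.5% and 14.6%. ETS (AGGAAGT) had 9.68%, 10.9% and 6.81%, and its GC-rich form CCGGAAG had 2.77%, 2.22% and 10.2%. RUNX (TGTGGTT) had 5.54%, 6.88% and 2.76%, and STAT (TTCNNNGAA) 4.69%, 5.22% and 3.68%. ETS, RUNX and STAT factors act in lymphoid and myeloid cells. The AGGAAGT, RUNX and STAT sequences were all less frequent in the sites than in the other shared distal sites, but the intervals overlapped for AGGAAGT and STAT. By signal, AGGAAGT was higher in the sites in the top tercile (8.09% against 7.02%) and the middle tercile (13.1% against 11.8%). It was lower in the bottom tercile (11.7% against 13.4%), where STAT was higher (8.03% against 5.35%). RUNX was lower in each tercile. C/EBP (TTGCNNAA) had 7.91%, 8.25% and 5.36%, and NF-kB (GGGNNTTCC) 4.99%, 3.36% and 4.95%. AP-1 (TGACTCA) had 4.17%, 4.89% and 2.65%, and the MARE (GCTGAGTCA), which holds an AP-1 match, 0.924%, 1.00% and 0.469%. AP-1 is a dimer of FOS and JUN proteins, and BACH and NRF2 factors with small MAF proteins bind the MARE; both sequences were close to the background. IRF (GAAA, 2 bases and GAAA) had 2.14%, 2.45% and 1.65%, and MEF2 (CTA, 4 bases and TAG) 2.44%, 2.97% and 1.69%. The promoter sequences CRE (TGACGTCA), NRF1 (CGCATGCG) and NFY (CCAATCA) had 0.813%, 0.591% and 3.10% in the sites, 0.349%, 0.247% and 2.15% in the others, and 2.15%, 2.24% and 6.03% at promoters. These 3 sequences are typical of CpG-rich promoters, and the sites lay between the other distal sites and the promoters for each. Counts were small: 22 sites held a CRE and 16 an NRF1 match, and 12 of each were CpG-rich. Among sites that were not CpG-rich, the CRE had 0.435% against 0.306%, NRF1 0.174% against 0.170% and NFY 2.52% against 2.16%. YY1 (AAGATGGC) had 1.11%, 1.67% and 2.68%, EBF (TCCC, 2 bases and GGGA) 0.887%, 1.07% and 0.896%, and GFI (AATCNNTGC) 1.22%, 1.48% and 1.13%. A match is a run of letters, and no factor was measured.

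**Figure D5:**
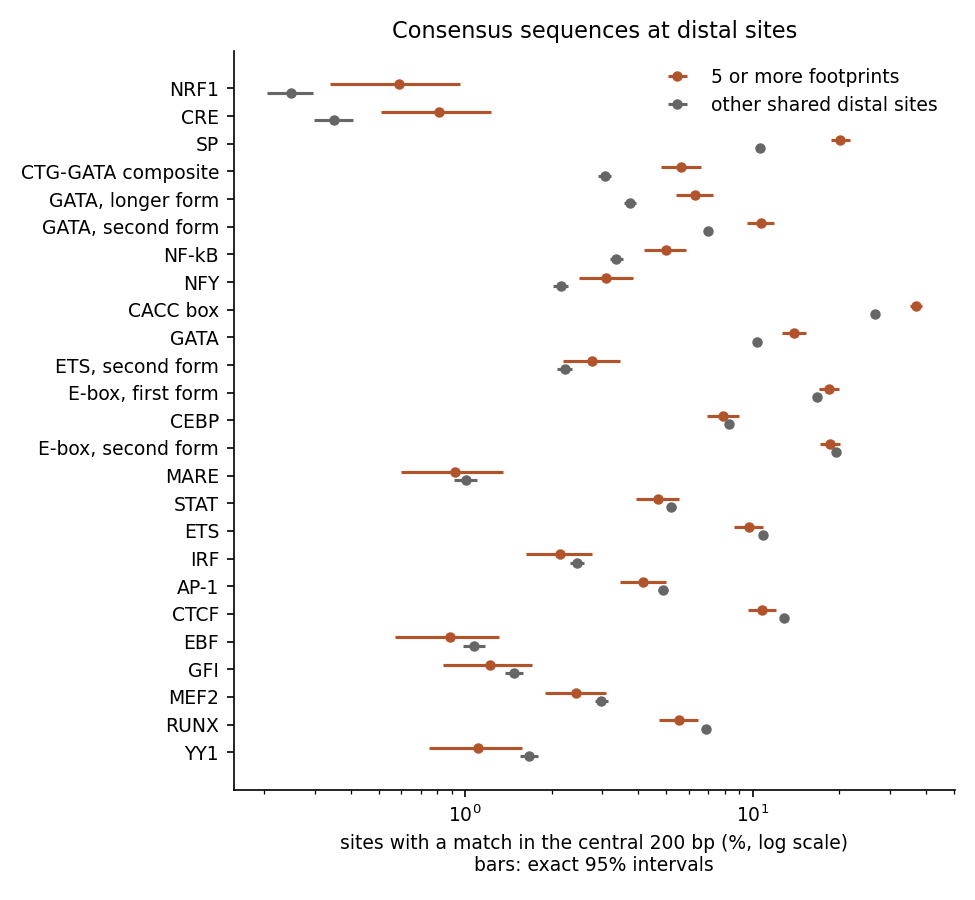
Percentage of sites with a match to each consensus in the central 200 bp, on a log axis with exact 95% intervals, in the 2707 sites with 5 or more footprints in each library (upper points) and in the 46116 other shared distal sites (lower points), ordered by the ratio of both; CTG-GATA is the composite of CTG and AGATAA, SP the GC box, and the E-boxes are CAGCTG (first form) and CAGGTG (second form). CRE, NRF1, the GC box (SP), the GATA forms and the CACC box stand higher in the sites, and CTCF, RUNX and YY1 lower.

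Some consensus matches lay inside footprints far more often than other stretches of the same length, and some less often. The sites were selected on their footprints, so these shares are a description. Of the 358 CTCF matches in the sites, 77.9% (73.3 to 82.1) lay wholly inside footprints of both libraries, beside 3.78% of all stretches of that length in the sites. In the other shared distal sites, 75.6% of 6095 CTCF matches did, beside 5.08% of stretches. GATA matches lay inside at 14.9% of 686 (12.3 to 17.8) in the sites, beside 8.11% of stretches, and at 5.22% of 5637 (4.65 to 5.83) in the other shared distal sites, beside 8.48%. GATA was thus above other stretches in the sites with 5 or more footprints and below them elsewhere. CACC boxes had 23.2% in the sites, beside 6.14%, and 15.8% in the others, beside 7.07%. The bound proteins of both CACC and GC boxes are zinc finger factors of the KLF and SP families. GC boxes had 31.8%, beside 8.11%, and 21.9%, beside 8.48%. EBF had 38.1% of 42 matches in the sites, beside 4.79%, and 15.1% of 555 in the others, beside 5.98%. NRF1 had 59.3% of 27 in the sites and 57.0% of 121 in the others. The CRE had 50% of 30 in the sites and 28.6% of 182 in the others.

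ETS, RUNX, STAT and C/EBP matches lay inside footprints of both libraries less often than other stretches: ETS in 2.61% of 536, beside 7.10%, RUNX in 2.89% of 277, beside 7.10%, STAT in 2.37% of 253, beside 5.42%, and C/EBP in 3.26% of 399, beside 6.14%. With footprints widened by 5 bp on either side RUNX turned to 20.6%, beside 19.1% of stretches, while ETS, STAT and C/EBP stayed below theirs. In the other shared distal sites ETS had 1.964% and RUNX 6.36%, beside 7.77% of stretches. The composition of the sequence changes how often DNase I cuts, and its part in these shares was not tested.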

How the data were processed

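DNase-seq of 2 spleen samples was analysed as deposited, from lists on mm10 (GRCm38). Per the deposited notes, peaks, footprints and cut-rate lists were made by the authors for each library from its own filtered alignment, and they name no aligner, caller or read total. The signal is the authors' depth-scaled density at a peak, of unstated constant, so no pseudocount or renormalisation was applied. The deposited cut-rate list gives an FDR below 0.05 per stretch. The footprint list deposited by the authors carries a constant of 0.01, not a score, so positions alone were used.

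The longer peak lists were merged, and TSSs came from GENCODE M21 with a 500 bp window. Annotated features and RefSeq TSSs came from the RefSeq annotation of GRCm38, sequences from its genome. Consensus matches, repeats and CpG were counted in the central 200 bp. Copies of a site were found with blastn 2.17.0 (95% identity over 90% of the site). Python 3.11.15, numpy 2.4.6, scipy 1.17.1 and matplotlib 3.10.9 were used, and merging and matching were tested on simulated data. With 1 group and no contrast, no test was run. The 13 gene lists held 214 genes, of which 213 matched.

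Sites, lists and rules for naming were chosen with earlier results of these data known. Named were the 10 sites with most footprints, the 10 strongest, the 3 widest, the leading site of each list, the 15 genes with most sites and up to 3 genes a list. Printed windows followed from these, except those of Nprl3 and Alas2. Alternatives were the shorter lists, other merging, windows, minimum counts and overlaps, autosomes, copies left out, and each library alone.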

Additional observations from a re-analysis of the deposited data

Results flagged for a closer look

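Footprints were also deposited outside every peak of their own library. In the 200 bp on either side of the 2707 sites, 1888 footprints of replicate 1 lay outside all peaks, or 1.74 per kb of flank. In replicate 2 the number was 1270, or 1.17 per kb. Inside the sites there were 17.7 footprints per kb in replicate 1 and 17.0 per kb in replicate 2. These flanking footprints enter no count of the report.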

How the results depend on the processing

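The number of sites, 2707, was set by the footprint minimum: it was 8915 at a minimum of 4, 949 at 6 and 205 at 8, and between 6540 and 8910 with 1 library alone. The other 11 alternatives, 2 of them chosen after seeing the data, gave counts within 1.5 times of it. The share of replicate 1 footprints found in replicate 2, 61.4%, was 67.6% at a minimum of 4, 50.9% at 8 and 55.4% with peaks merged across gaps of up to 150 bp. The share of replicate 2 footprints found in replicate 1, 69.6%, was 77.2% at 4, 61.5% at 6 and 56.2% at 8. In sites of 1 peak in each library, an alternative chosen after seeing the data, the shares were 68.5% for replicate 1 and 77.3% for replicate 2. Genes with a site numbered 4457 when every coding gene with a TSS within 50 kb was counted, against 2097 by nearest TSS. Over the 14 alternatives that kept both libraries the median width ran from 200 to 640 bp, the median spacing from 40 to 50 bp in replicate 1 and from 36.5 to 48 bp in replicate 2, the intron share from 42.0% to 48.9%, and the GATA share from 9.76% to 15.4%. With 1 library alone the median width was 200 bp, the spacing 36.5 bp in replicate 1 and 35.5 bp in replicate 2, and the GATA share 9.67% in replicate 1 and 13.2% in replicate 2. Consensus sequences above the share of all stretches in footprints numbered 15, and 19 with footprints widened by 5 bp. The cause of each move was not tested.

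With 2 libraries of 1 group there is no spread between groups, intervals cover counting error over sites only, and neighbouring sites are not independent. Footprints are harder to see where cuts are few, and read totals are unknown, so a missing footprint was not detectable and is not shown to be absent. Reads of the CAST/EiJ genome were placed on a C57BL/6J reference. No paired analysis was possible because the series has 1 group.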

Other observations

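On the Y chromosome, 5 of 37 shared distal sites (13.5%, exact 95% interval 4.54 to 28.8) had 5 or more footprints in each library, and on the X chromosome 58 of 1229 (4.72%, 3.603 to 6.06), beside 5.54% of all shared distal sites. The 5 sites of the Y chromosome lay nearest to Gm21860, and 3 of them have a near-identical copy elsewhere in the assembly. Among the autosomes the share was lowest on chromosome 16 (3.95%) and highest on chromosome 19 (7.28%).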
